A study of Homo sapiens with 9 samples.

Results

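The nuclear-encoded subunits of the mitochondrial respiratory chain were read in NCI-H1155 cells treated with foretinib, cabozantinib or vehicle. The genes were chosen by symbol, as rows beginning with NDUFA, NDUFB, NDUFC, NDUFS or NDUFV and a digit, SDHA to SDHD, rows beginning with UQCR, CYC1, rows beginning with COX and a digit for subunits 4 to 8, and rows beginning with ATP5. This gave 92 of the 23369 genes of the table, with 39 under complex I, 4 under complex II, 11 under complex III, 18 under complex IV and 20 under complex V. Of these, 76 were above 0 in every library, 66 had a mean of 1000 normalised reads or more, and 7 were listed at 0 in all 9 libraries. The symbol rule also took 7 rows that are not separate subunits. COX4NB encodes a subunit of the endoplasmic reticulum membrane complex, ATP5SL a factor for complex I assembly and ATP5S the coupling protein called factor B, while ATP5EP2 and UQCRBP1 are pseudogenes and ATP5J2-PTCD1 and NDUFC2-KCTD14 are readthrough transcripts. NDUFA4 was kept under complex I by its symbol although its protein is now known as a subunit of complex IV.

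The respiratory chain passes electrons from NADH (complex I) and succinate (complex II) through ubiquinone to complex III, and from there through cytochrome c to complex IV, which reduces oxygen. The protons pumped on the way return through complex V, the ATP synthase. Most subunits are encoded in the nucleus and imported, and their genes are known for a shared dependence on the transcription factors NRF1 and NRF2 (GABPA with its partner GABPB1). Transcripts of the mitochondrial genome were not analysed here.

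NCI-H1155 is an established human large cell lung carcinoma line that expresses neuroendocrine genes. The cells received 1 µM foretinib for 4 h, 1 µM cabozantinib for 4 h or DMSO, the solvent, all from 24 h after plating, and each group held 3 libraries that the labels call biological triplicates. The duration of DMSO exposure is not given separately in the labels. Libraries are named by their title numbers, which are 1, 2 and 4 for foretinib, 3, 4 and 5 for cabozantinib and 2, 4 and 5 for DMSO. The p-values set differences between groups against the spread between these libraries of 1 line. Values are normalised read counts, and errors after ± are SDs over the 3 libraries of a group.

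The 9 libraries held 26996023 to 34062153 reads assigned to genes. The foretinib libraries had more empty genes, with 16.3% to 21.0% of the 12642 tested genes at 0, against 4.41% to 5.48% in cabozantinib and 5.30% to 10.9% in DMSO. All 9 neuroendocrine markers were in the table. Their summed level was 66672 to 70001 in foretinib, 65102 to 69983 in cabozantinib and 55812 to 62023 in DMSO. Against DMSO, 8 had a log2 fold change above 0 and 1 (DDC) below in foretinib, and 7 and 2 in cabozantinib. Of all tested genes, 36.1% and 53.3% were above 0. SYP had 2209, 3669 and 2769 in cabozantinib, below the 4979, 4458 and 4294 in DMSO. Of the epithelial markers KRT8, KRT18, EPCAM and CDH1, the summed level was 2603 to 5109 in foretinib, 4271 to 6674 in cabozantinib and 3962 to 6554 in DMSO, and CDH1 was listed at 0 in the 3 foretinib libraries. PTPRC, CD3E, CD79A, COL3A1, PDGFRB, VWF and CDH5 were at 0 in every library, and PECAM1 and HBA2 were at 0 in foretinib and at most 53.2 and 141 in cabozantinib and 87.4 and 0 in DMSO. CD68, a macrophage gene, was at 0.822, 77.8 and 755 in foretinib, 211, 174 and 271 in cabozantinib and 199, 129.6 and 4.89 in DMSO. The collagen gene COL1A2 was at 338 to 1194 in foretinib, 638 to 1028 in cabozantinib and 438 to 1052 in DMSO, and COL1A1 at 572, 0 and 531 in foretinib, 100.3, 20.9 and 129 in cabozantinib and 0, 15.1 and 206 in DMSO. The part of these genes in the results was not tested. In bulk RNA, fewer cells of a kind and less RNA per cell cannot be told apart.

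The promoters of the genes were examined for the letters that NRF1 and ETS factors are known to bind, which are known to drive many of these genes. RefSeq promoters (GRCh38.p14, 250 bases before to 50 bases after the transcript start) were found for 68 of the 92 genes. The 7 rows that are not separate subunits were left out of this search. The letters GCGCATGCG, the core of an NRF1 site, occurred on either strand in 10 of the 68 promoters (14.7%), against 573 of 27305 promoters in all (2.1%) and 2.76% of those of protein-coding genes. The letters CCGGAAG, the core of a site for ETS factors such as GABPA, occurred in 19 of the 68 (27.9%), against 10.7% of all promoters and 14.2% of those of protein-coding genes. Neither motif contains the other. Both occurred in 4 of the 68 promoters (5.88%), against 0.498% of all promoters. These 4 are shown because they carry both motifs, with the matching letters in capitals. They are ATP5I (now ATP5ME, chr4:674227-674526, minus strand), ATP5J (now ATP5PF, chr21:25735005-25735304, minus strand), COX6A1 (chr12:120437863-120438162, plus strand) and SDHD (chr11:112086623-112086922, plus strand), each printed 5′ to 3′ on the strand of its gene.
ATP5ME: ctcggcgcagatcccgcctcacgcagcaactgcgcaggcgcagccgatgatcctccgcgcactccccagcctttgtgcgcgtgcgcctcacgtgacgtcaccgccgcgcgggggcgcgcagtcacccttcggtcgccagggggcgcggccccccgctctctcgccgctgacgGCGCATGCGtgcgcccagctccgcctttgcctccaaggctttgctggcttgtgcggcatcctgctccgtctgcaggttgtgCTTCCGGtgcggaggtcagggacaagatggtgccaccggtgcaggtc
ATP5PF: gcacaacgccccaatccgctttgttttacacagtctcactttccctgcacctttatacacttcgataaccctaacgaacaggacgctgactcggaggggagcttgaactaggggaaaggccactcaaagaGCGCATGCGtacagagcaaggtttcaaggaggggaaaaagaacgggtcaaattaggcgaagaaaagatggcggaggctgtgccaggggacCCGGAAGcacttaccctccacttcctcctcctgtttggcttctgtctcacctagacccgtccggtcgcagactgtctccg
COX6A1: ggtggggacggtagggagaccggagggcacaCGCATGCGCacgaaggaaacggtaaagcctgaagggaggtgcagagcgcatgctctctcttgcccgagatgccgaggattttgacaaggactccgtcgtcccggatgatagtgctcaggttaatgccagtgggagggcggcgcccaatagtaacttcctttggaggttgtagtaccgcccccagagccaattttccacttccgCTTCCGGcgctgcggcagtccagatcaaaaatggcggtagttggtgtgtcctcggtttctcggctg
SDHD: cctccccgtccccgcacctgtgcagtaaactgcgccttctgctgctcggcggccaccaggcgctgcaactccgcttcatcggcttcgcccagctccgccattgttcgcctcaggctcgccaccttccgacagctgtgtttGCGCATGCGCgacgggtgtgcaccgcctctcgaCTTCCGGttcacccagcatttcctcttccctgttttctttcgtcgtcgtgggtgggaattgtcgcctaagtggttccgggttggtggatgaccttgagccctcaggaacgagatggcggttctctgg
In COX6A1 both motifs, and in ATP5ME and SDHD the ETS motif, read on the opposite strand, and the SDHD promoter holds the NRF1 letters on both strands, overlapping. A match describes these letters in this window and is not a measured binding site.

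The levels of the factors themselves were read in the same libraries. NRF1 was listed at 0 in the 3 foretinib libraries, against 393, 228 and 283 in cabozantinib and 396, 401 and 487 in DMSO. NRF1 was not called by limma in either comparison with foretinib (adjusted p = 0.358 against DMSO and 0.377 against cabozantinib), whereas DESeq2 on the recovered reads called it in both (adjusted p = 2.43e-07 and 1.05e-06). DESeq2 called 4.37% of all tested genes as lower in foretinib than in DMSO and 4.39% as lower than in cabozantinib. GABPA, the DNA-binding subunit of NRF2 and the neighbour of ATP5J in the RefSeq annotation, had 2104, 7409.8 and 2839.8 in foretinib, 5163, 2826 and 4418 in cabozantinib and 3189.9, 3961 and 3340.05 in DMSO, and the groups overlapped.

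Summed over all complexes, the chain was read at similar levels in the 3 groups. By complex, groups that did not overlap were seen in complexes II and V. All 92 genes together came to 289047 ± 20924 in foretinib, 283435 ± 4542 in cabozantinib and 266315 ± 26983 in DMSO, which is 1.02%, 1.03% and 0.975% of a library. The ratio of the means was 1.09 for foretinib over DMSO, with 1.03 to 1.14 when each library was left out in turn. It was 1.06 for cabozantinib over DMSO (1.01 to 1.11) and 1.02 for foretinib over cabozantinib (0.978 to 1.05). The ranges of the groups overlapped in each case, and sums over genes were given no test.

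**Figure D1:**
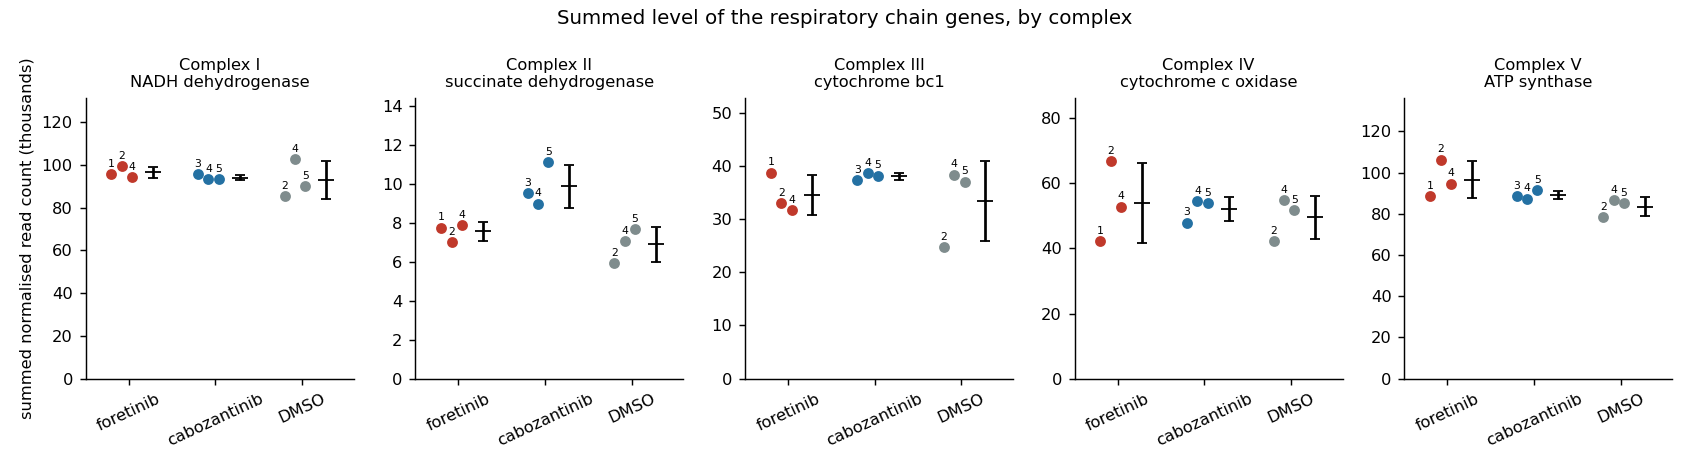
Summed normalised read count, in units of 1000, of the genes of each complex, 1 point per library labelled with its title number, with the mean and SD of each group beside the points. The 3 cabozantinib libraries lie above all others in complex II, the 3 foretinib and the 3 cabozantinib libraries lie above the 3 DMSO libraries in complex V, and DMSO library 2 lies lowest in complex III.

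The genes of complex I summed to 96562 ± 2617 in foretinib, 94175 ± 1271 in cabozantinib and 92910 (85597 in library 2, 102912 in library 4 and 90219.5 in library 5) in DMSO. Complex II, the 4 subunits of succinate dehydrogenase, summed to 7771, 7020 and 7910 in foretinib, 9537, 8998 and 11147 in cabozantinib and 5927, 7058 and 7708 in DMSO. The cabozantinib libraries were thus all above the other 6, at a ratio of means of 1.43 over DMSO. Complex III summed to 34438 ± 3774 in foretinib, 38002 ± 661 in cabozantinib and 24740, 38344 and 37012 in DMSO, where library 2 stood apart from the other two. Complex IV summed to 54005 ± 12387 in foretinib, 52209 ± 3696 in cabozantinib and 49667 ± 6615 in DMSO, and library 2 of foretinib was the highest at 66923. Complex V summed to 88474, 106262 and 94688 in foretinib, 88768, 87366 and 91332 in cabozantinib and 78407, 86707 and 85315 in DMSO. All 3 foretinib libraries and all 3 cabozantinib libraries exceeded the 3 DMSO libraries, and the compounds overlapped with each other. Of the 18 tested members of complex V, 9 had a log2 fold change above 0 in foretinib against DMSO (median -0.07). Over all tested genes 36.1% were above 0 (median -0.34). With each library left out in turn, this count of members ran from 7 to 11 and their median from -0.21 to 0.22. In cabozantinib against DMSO 10 members were above 0 (median 0.05), against 53.3% of all tested genes (median 0.04). The 18 include ATP5S, ATP5SL and ATP5EP2, which are not subunits. ATP5J and ATP5B, the most abundant genes of complex V, averaged 41020 and 13472 in foretinib, against 34883 and 9157 in DMSO.

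Levels within the chain were uneven. ATP5J, the stalk subunit F6 of the ATP synthase, had 39795, 44804 and 38460 in foretinib, 35252, 34923 and 38084 in cabozantinib and 37407, 34255 and 32985 in DMSO. It alone made 14.2% ± 0.473 of the summed level in foretinib, 12.7% ± 0.444 in cabozantinib and 13.2% ± 2.21 in DMSO. On a scale per kilobase of transcript, with the median length of the GENCODE 29 principal transcripts, ATP5J averaged 57696 over the 9 libraries. ATP5I, subunit e of the ATP synthase, averaged 25726 per kilobase, NDUFB10, a membrane-arm subunit of complex I, 21941, UQCRH, the hinge protein of complex III, 15453 and COX4I1, the common form of COX subunit 4, 12329. These levels are less certain for the 49 members with at least 1 named pseudogene, such as COX6C with 18, since reads of near-identical copies may have been split or dropped. UQCRH and its near-copy UQCRHL are uncertain for the same reason.

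Most tissue-restricted isoforms were absent. COX4I2, COX6A2, COX7A1, COX7B2 and COX8C, forms of complex IV subunits known from lung, heart, skeletal muscle or testis, were listed at 0 in every library. COX6B2, a testis form, had 0, 0 and 19.9 in foretinib, 94.4, 12.96 and 2.05 in cabozantinib and 0, 1.00 and 7.83 in DMSO, whereas its common counterpart COX6B1 had 3249, 6883 and 6149 in foretinib, 3985, 3769 and 4338 in cabozantinib and 3335, 5934 and 4225 in DMSO. COX6A1, COX7A2 and COX8A, the common forms of their subunits, averaged 3612, 2183 and 5632 in foretinib, 4386, 2011 and 4344 in cabozantinib and 3573, 2005 and 5079.9 in DMSO.

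Foretinib was set against DMSO to ask how the chain responds to the compound. No member was called by limma: 0 of the 83 that passed the filter on low values (3 or more libraries at 10 or above) reached an adjusted p below 0.05, against 0% of all 12642 tested genes. At an unadjusted p below 0.05, 3 members were higher (background 2.17% of tested genes) and 4 were lower (background 6.9%). Between groups with no overlap, 7 members were higher in all 3 foretinib libraries than in all 3 DMSO libraries, against 3.99% of tested genes, and 5 were lower, against 7.69%. Among the 66 members with a mean of 1000 or more these counts were 7 and 2, against 5.87% and 4.88% of the 5488 genes at that level. edgeR called no gene, and DESeq2 called 1 member higher (background 0.949%) and 1 lower (background 4.37%). The median log2 fold change of the 83 members was -0.01, against -0.34 over all tested genes. At a mean of 1000 or more it was 0.00 for the members and -0.03 for all genes. After quantile normalisation the medians over all tested genes were -0.09 for the members and -0.04 for all genes. For 26 of the 83 members the 95% interval lay within 1 log2 unit of 0, and for 57 it reached beyond.

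The member with the smallest p was ATP5B, which encodes the catalytic beta subunit of the ATP synthase. It had 13056, 15417 and 11941 normalised reads in foretinib, against 8628, 9295 and 9547 in DMSO. Every foretinib library was above every DMSO library, with a log2 fold change of 0.55 (95% interval 0.19 to 0.91, limma adjusted p = 0.388), and DESeq2 gave an adjusted p of 0.0109. ATP5A1, the alpha subunit that alternates with beta in the catalytic head, had 6528, 7588 and 11155 in foretinib, against 4354, 9279 and 9264 in DMSO, and the groups overlapped. ATP5G2, for the c subunit of the rotor ring, had 2623, 2619 and 4345 in foretinib, against 1071, 1813 and 1949 in DMSO. Its groups did not overlap, at a log2 fold change of 0.99 (0.10 to 1.88, limma adjusted p = 0.528). ATP5J, named here after its values were seen, was also above DMSO in all libraries, at 0.23 on the log2 scale (-0.03 to 0.50, limma adjusted p = 0.531).

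Within complex I, NDUFB6, a small subunit of the membrane arm, had 577, 319 and 215 in foretinib, against 1314, 972 and 1512 in DMSO. All foretinib libraries were lower, with a ratio of means of 0.293 and a log2 fold change of -1.87 (-3.23 to -0.50, limma adjusted p = 0.425), and DESeq2 gave an adjusted p of 0.0355. NDUFA13, an accessory subunit also known as GRIM-19, had 8251, 7042 and 5998 in foretinib, against 4695, 5237 and 4334 in DMSO. It was higher in all foretinib libraries, at 0.57 on the log2 scale (0.10 to 1.04, limma adjusted p = 0.497). The core subunits NDUFV1, which binds FMN and takes electrons from NADH, NDUFS1 and NDUFS7, which carry iron-sulfur clusters, had overlapping groups. NDUFV1 had 845, 1740.1 and 2317 in foretinib, against 642, 1160.2 and 1183 in DMSO. NDUFS1 had 3538, 2479.5 and 1445 in foretinib, against 3455, 2025 and 2699 in DMSO. Of the other core subunits, NDUFV2 and NDUFS8, named after their values were seen, were higher in all foretinib libraries. Their ratios of means were 1.70 and 1.62, and limma gave both an adjusted p of 0.531. NDUFS8 was also above DMSO in every cabozantinib library, at 0.40 on the log2 scale (-0.27 to 1.08), whereas NDUFV2 overlapped there. NDUFA9, NDUFA12 and NDUFS4, also named after their values were seen, were lower in all foretinib libraries, with ratios of means of 0.496, 0.228 and 0.276, and limma's adjusted p was 0.523 to 0.531.

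**Figure D2:**
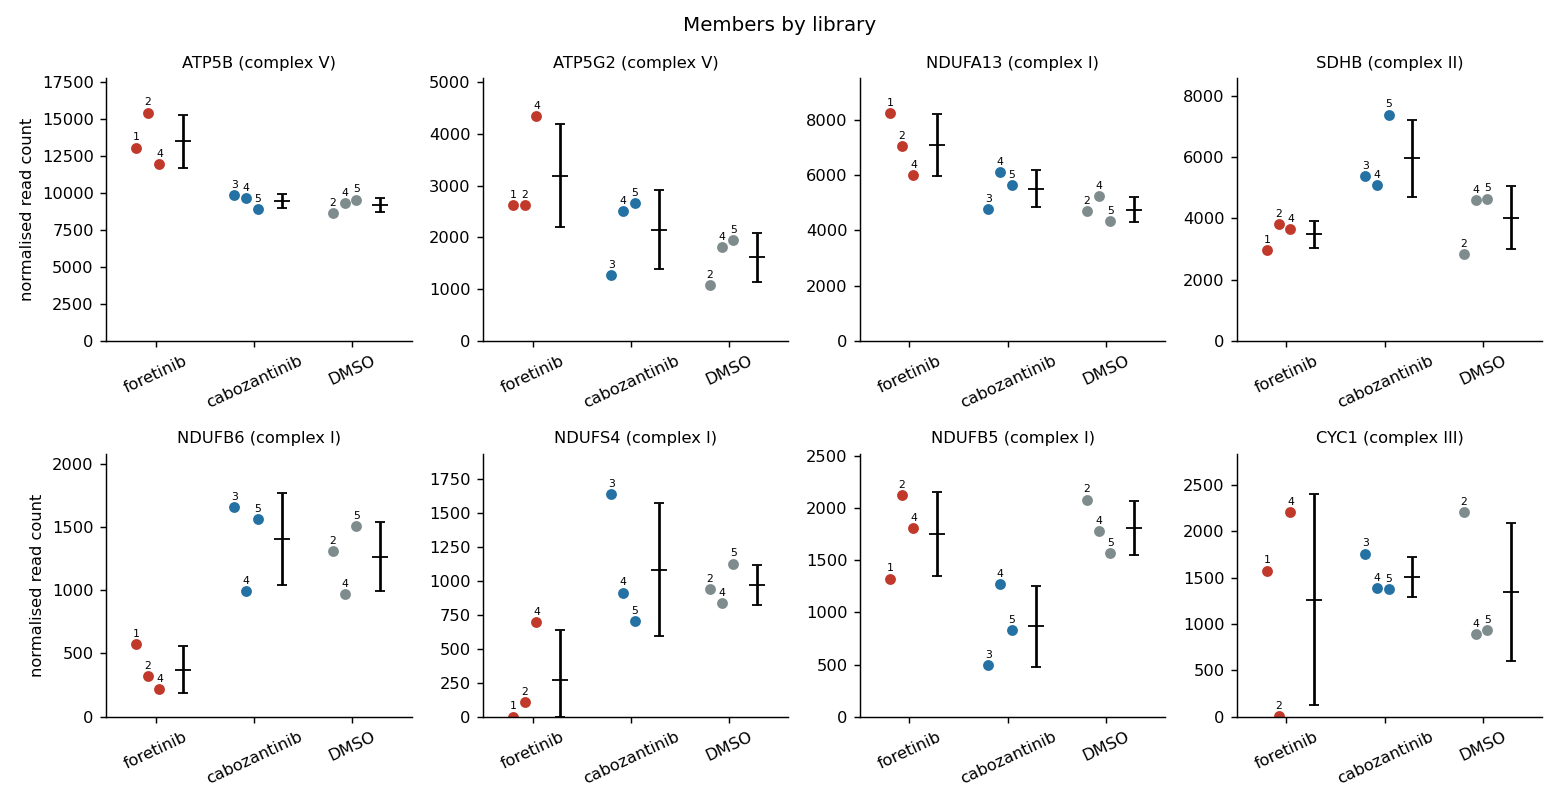
Normalised read count of 8 members, 1 point per library labelled with its title number, with the mean and SD of each group beside the points (the SD bar stops at 0). ATP5B, ATP5G2 and NDUFA13 lie higher and NDUFB6 and NDUFS4 lower in every foretinib library than in every DMSO library, NDUFB5 is lower in every cabozantinib library than in every other, and the CYC1 value of foretinib library 2 is 3.84.

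In complex II, SDHA, the flavoprotein that oxidises succinate, had 3436, 1249 and 1905 in foretinib, against 1361, 1347 and 1063 in DMSO. The groups overlapped, and the log2 fold change of 0.69 (limma adjusted p = 0.574) was 0.30 without foretinib library 1. SDHC, a membrane anchor, had 613, 0.960 and 646 in foretinib, against 942, 725 and 721 in DMSO. Its log2 fold change of -3.10 (limma adjusted p = 0.536) was -0.33 without foretinib library 2, whose value was near 0. In complex III, UQCR10, a small subunit, had 937, 1829 and 2629 in foretinib, against 1325, 679 and 417 in DMSO. The groups overlapped at a log2 fold change of 1.19 (-0.16 to 2.55, limma adjusted p = 0.531). UQCRHL had 1569, 24.0 and 1198 in foretinib, against 709, 1709.7 and 1949 in DMSO, and its log2 fold change of -1.88 (limma adjusted p = 0.574) became 0.04 without foretinib library 2. UQCRC1, a core protein, had 3356, 3086 and 1808 in foretinib, against 2305, 1925 and 2915 in DMSO, with overlap.

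In complex IV, COX7B, a small subunit, had 2042, 4840.0 and 1412 in foretinib, against 748, 1677 and 1853 in DMSO. The groups overlapped, and the log2 fold change of 0.86 (limma adjusted p = 0.545) was 0.36 without foretinib library 2 and 0.45 without DMSO library 2. COX4I1 had 6188, 13707 and 9699 in foretinib, against 8824, 9021 and 7399 in DMSO, and COX5A, a matrix-side subunit, had 6299, 4529.8 and 841 in foretinib, against 2935, 3458 and 2805 in DMSO. In both the foretinib libraries spanned the DMSO libraries on either side. COX4NB, which matched the rule by symbol only, had 413, 1149 and 79.5 in foretinib, against 2120.2, 2020.1 and 1001 in DMSO, at a log2 fold change of -2.27 (limma adjusted p = 0.497), or -1.24 without foretinib library 4.

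Cabozantinib was set against the same DMSO libraries, so this comparison and the preceding one share their controls. Limma called 0 of the 83 members, against 0% of all tested genes, edgeR called no member, DESeq2 called none either (background 0.245% higher and 0.0633% lower), and at an unadjusted p below 0.05 no member was higher (background 0.878%) and 1 was lower (background 0.435%). Of the members, 9 were higher in all 3 cabozantinib libraries, against 5.18% of tested genes, and 1 was lower, against 4.71%. At a mean of 1000 or more these counts were 7 and 1 of 66, against 4.66% and 4.96%. The median log2 fold change was 0.07 for the members and 0.04 for all tested genes. By complex it was 0.04 in complex I, 0.53 in complex II, 0.29 in complex III, 0.04 in complex IV and 0.05 in complex V. All 4 members of complex II and 8 of 10 of complex III had a fold change above 0, against 53.3% of all tested genes. Without DMSO library 2, which was low in complex III, 5 of the 10 members of complex III were above 0 with a median of 0.02, and all 4 of complex II were above 0 with a median of 0.49, against 49.5% of all tested genes. The 95% interval lay within 1 log2 unit of 0 for 28 of the 83 members.

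SDHB, the iron-sulfur subunit of complex II, had 5394, 5099 and 7397 in cabozantinib, against 2843, 4589.7 and 4649 in DMSO. It was higher in every cabozantinib library, at a log2 fold change of 0.58 (-0.01 to 1.17, limma adjusted p = 1.00), and at 0.35 without DMSO library 2. SDHD, a membrane anchor of complex II whose promoter is shown above, had 1659, 1167 and 1009 in cabozantinib, against 780.2, 396 and 1275 in DMSO, with overlap. Its log2 fold change of 0.77 was 0.33 without DMSO library 4 (limma adjusted p = 1.00). The remaining subunits were SDHA and SDHC, and SDHC was named here after its values were seen. Both were also higher in every cabozantinib library than in every DMSO library. Their log2 fold changes were 0.31 (-0.65 to 1.27) for SDHA and 0.48 (-3.31 to 4.27) for SDHC, with both intervals spanning 0. SDHA had 1427, 1559 and 1661 in cabozantinib, against 1361, 1347 and 1063 in DMSO, and SDHC had 1057, 1173 and 1080.2 in cabozantinib, against 942, 725 and 721 in DMSO.

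NDUFB5, a membrane-arm subunit of complex I, was the 1 member that was lower in all libraries. It had 495, 1271 and 832 in cabozantinib, against 2084, 1783 and 1573 in DMSO, a log2 fold change of -1.16 (-2.19 to -0.13, limma adjusted p = 1.00). NDUFB8, another accessory subunit, had 2154, 1598 and 3271 in cabozantinib, against 3405, 3043 and 2951 in DMSO, with overlap at -0.48 on the log2 scale (-0.24 without cabozantinib library 4, limma adjusted p = 1.00). In complex III, UQCRFS1, the Rieske iron-sulfur protein, had 1025, 1115 and 1606 in cabozantinib, against 201, 996 and 833 in DMSO. Its groups did not overlap, and the log2 fold change of 1.15 (limma adjusted p = 1.00) was 0.43 without DMSO library 2. UQCRB, the ubiquinone-binding protein of complex III, had 9351, 10929 and 11189.6 in cabozantinib, against 6431, 9354 and 9457 in DMSO, with overlap at 0.34 on the log2 scale (0.15 without DMSO library 2).

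COX5B, a zinc-binding subunit of complex IV, had 3579.8, 4388 and 3609.8 in cabozantinib, against 2472, 3128 and 3119 in DMSO, and ATP5G3, a gene of the c ring, had 5860.4, 7244 and 8101 in cabozantinib, against 5704, 4912 and 5375 in DMSO. Both were higher in every cabozantinib library, by 0.41 and 0.40 on the log2 scale (limma adjusted p = 1.00 for each). COX5B was also above every DMSO library in foretinib, with 3342, 5753 and 3333. Its log2 fold change there was 0.47 (-0.16 to 1.09, limma adjusted p = 0.560). For ATP5G3 the foretinib and DMSO groups overlapped. COX7C, a small subunit, had 8358, 10819.6 and 10280.2 in cabozantinib, against 4304, 8531 and 10956 in DMSO. Its groups overlapped and its log2 fold change of 0.40 was 0.01 without DMSO library 2. ATP5SL had 1333, 658 and 1198 in cabozantinib, against 2639, 1299.9 and 1295 in DMSO. Its groups overlapped, and the log2 fold change of -0.69 was -0.35 without DMSO library 2.

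The series compares structurally related inhibitors, and foretinib and cabozantinib form its 1 pair at a matched dose and time. On a shared quinoline scaffold, foretinib bears a morpholine-tipped propoxy chain where cabozantinib bears methoxy, and it has an extra fluorine on the middle phenyl ring. Limma called 0 of the 83 members between the compounds, against 0% of tested genes, and edgeR called none. At an unadjusted p below 0.05, 3 members were higher in foretinib (background 1.83%) and 5 lower (background 8.08%). With no overlap of the groups, 6 members were higher in foretinib, against 4.49% of tested genes, and 9 lower, against 9.7%. At a mean of 1000 or more these counts were 5 and 5 of 66, against 6.89% and 5.63%. DESeq2 called 1 member higher (background 0.68%) and 1 lower (background 4.39%), ATP5B and NDUFB6. The median log2 fold change was -0.08 for the members and -0.44 for all tested genes, and at a mean of 1000 or more -0.03 for the members and -0.04 for all genes. The 95% interval of the difference lay within 1 log2 unit of 0 for 21 members and reached beyond it for 62, so that for most members a 2-fold difference lay within the interval.

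**Figure D3:**
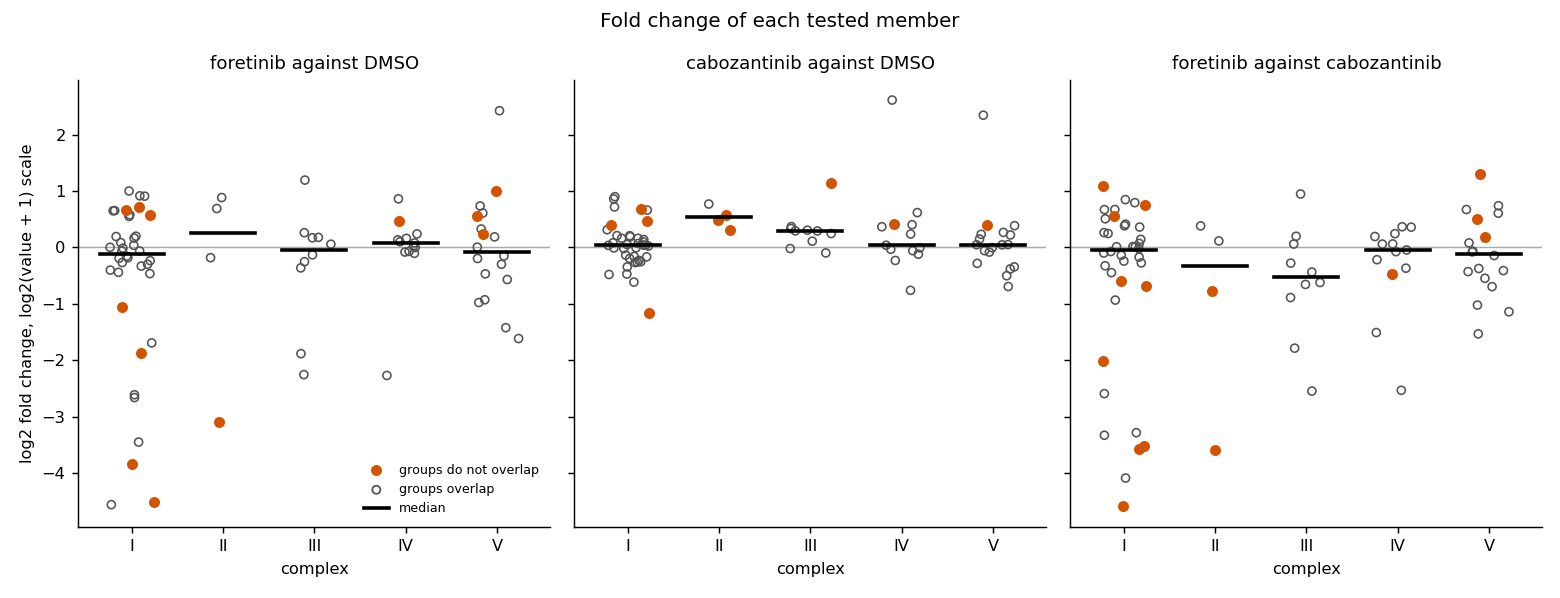
Log2 fold change of each tested member on the log2(value + 1) scale, by complex, for the 3 comparisons, with a bar at the median of each complex. Filled points are members whose groups do not overlap, 7 higher and 5 lower in foretinib against DMSO, 9 and 1 in cabozantinib against DMSO and 6 and 9 in foretinib against cabozantinib.

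NDUFB6 had 577, 319 and 215 in foretinib, against 1662, 992 and 1568 in cabozantinib. Every foretinib library was lower, at a log2 fold change of -2.01 (-3.37 to -0.64, limma adjusted p = 0.378), and DESeq2 gave an adjusted p of 0.0179. ATP5B had 13056, 15417 and 11941 in foretinib, against 9821, 9659.6 and 8902 in cabozantinib, all higher in foretinib, at 0.50 (0.14 to 0.87, limma adjusted p = 0.393), and DESeq2 gave an adjusted p of 0.0287. SDHB had 2977, 3813 and 3658 in foretinib, against 5394, 5099 and 7397 in cabozantinib. It was lower in every foretinib library, at -0.76 (-1.36 to -0.17, limma adjusted p = 0.406). SDHB made 38.3%, 54.3% and 46.3% of the complex II reads in foretinib, 56.6%, 56.7% and 66.4% in cabozantinib and 48.0%, 65.0% and 60.3% in DMSO.

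NDUFS4, an accessory subunit that joins complex I late in assembly, had 0, 107 and 695 in foretinib, against 1639, 914 and 702 in cabozantinib. The groups did not overlap, and the log2 fold change of -4.59 (-8.61 to -0.58, limma adjusted p = 0.468) was -1.89 without foretinib library 1. CYC1, which encodes the haem protein cytochrome c1, had 1574, 3.84 and 2209 in foretinib, against 1759, 1389 and 1375 in cabozantinib, and its log2 fold change of -2.55 (limma adjusted p = 0.571) became 0.32 without foretinib library 2. NDUFB5, named in this comparison after its values were seen, had 1326, 2125 and 1812 in foretinib, against 495, 1271 and 832 in cabozantinib. It was higher in every foretinib library, at 1.10 on the log2 scale (0.06 to 2.13, limma adjusted p = 0.487). UQCRQ, a small subunit of complex III, had 4069, 2281 and 1914 in foretinib, against 3863, 3928 and 4589 in cabozantinib, with overlap at -0.66 on the log2 scale (-0.43 without foretinib library 4, limma adjusted p = 0.532). COX7C had 5429, 7864 and 8147 in foretinib, against 8358, 10819.6 and 10280.2 in cabozantinib. All foretinib libraries were lower, at -0.47 on the log2 scale (-1.12 to 0.18, limma adjusted p = 0.561), at -0.29 without foretinib library 1 and at 0.05 with a replicate block. ATP5SL, which is not a subunit, had 1701, 4276 and 2173 in foretinib, against 1333, 658 and 1198 in cabozantinib, higher in every foretinib library at 1.30 (0.23 to 2.37, limma adjusted p = 0.431). COX4NB, which is also not a subunit, had 413, 1149 and 79.5 in foretinib, against 846, 1204 and 864 in cabozantinib, with overlap at -1.51 (-0.48 without foretinib library 4, limma adjusted p = 0.535).

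Several of the lower values in foretinib came from single libraries close to 0. Of the 78 members with a mean of 300 or more, 3, 2 and 3 were below 10 in foretinib libraries 1, 2 and 4, and none was below 10 in any cabozantinib or DMSO library. They were NDUFA8 and NDUFS4 (both listed at 0) and NDUFA12 in library 1, CYC1 and SDHC in library 2, and ATP5D, NDUFS3 and NDUFV3 in library 4. None of these 78 was below 10 in more than 1 foretinib library. Below that level, NDUFA4L2, a paralogue of NDUFA4, had 0, 0 and 767 in foretinib, against 291, 70.8 and 180.03 in cabozantinib and 399, 185 and 135 in DMSO, and the groups overlapped. Over all 9259 genes at that level, 6.05% to 9.73% were below 10 in the foretinib libraries, against 0.292% to 0.648% in cabozantinib and 0.551% to 1.89% in DMSO. The members' shares were 2.56% to 3.85% in foretinib. These shares were not matched for level, since 66 of the 78 members had a mean of 1000 or more, against 5488 of the 9259 genes.

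**Figure D4:**
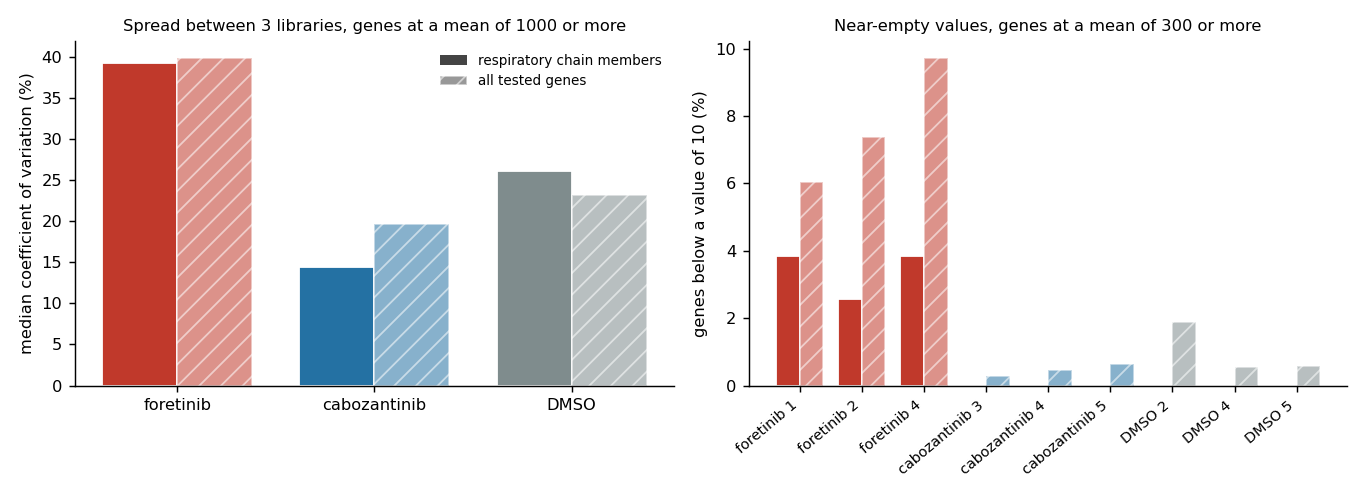
Left, median coefficient of variation (%) between the 3 libraries of a group, for the 66 members (solid) and the 5488 tested genes (hatched) with a mean of 1000 or more. Right, percentage of members (solid) and genes (hatched) with a mean of 300 or more that lie below a value of 10 in each library; members reach 3.85% in foretinib and 0% in the other 6 libraries.

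The spread between replicates followed the same order. The median coefficient of variation of the 66 members with a mean of 1000 or more was 39.3% in foretinib, 14.4% in cabozantinib and 26.1% in DMSO, and over all 5488 genes at that level it was 39.9%, 19.7% and 23.2%. It was largest in foretinib for 46 of the 66 members (69.7%), against 67.5% of the genes. Among DMSO libraries, library 2 was the lowest for 39 of the 78 members with a mean of 300 or more, and the other two for 14 (library 4) and 25 (library 5). The part of these library differences in the fold changes was not tested.

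The c ring of the ATP synthase is made from an identical mature protein that 3 genes encode, ATP5G1, ATP5G2 and ATP5G3. Their balance was chosen for description after the values were seen and was given no test. ATP5G2 made 25.8%, 38.6% and 53.4% of the reads of the 3 genes in foretinib, against 16.0%, 24.7% and 23.2% in cabozantinib and 14.5%, 24.2% and 22.5% in DMSO. Each foretinib library was above the other 6. ATP5G3 made 64.9%, 55.8% and 39.9% in foretinib, 74.1%, 71.4% and 70.6% in cabozantinib and 77.2%, 65.5% and 62.1% in DMSO, and ATP5G1 made the rest. The sum of the 3 genes was 8355 ± 1695 in foretinib, 9844 ± 1803 in cabozantinib and 7848 ± 707 in DMSO, so that the groups overlapped. ATP5G1 and ATP5G2 have 8 and 5 named pseudogenes, and ATP5G3 has none.

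**Figure D5:**
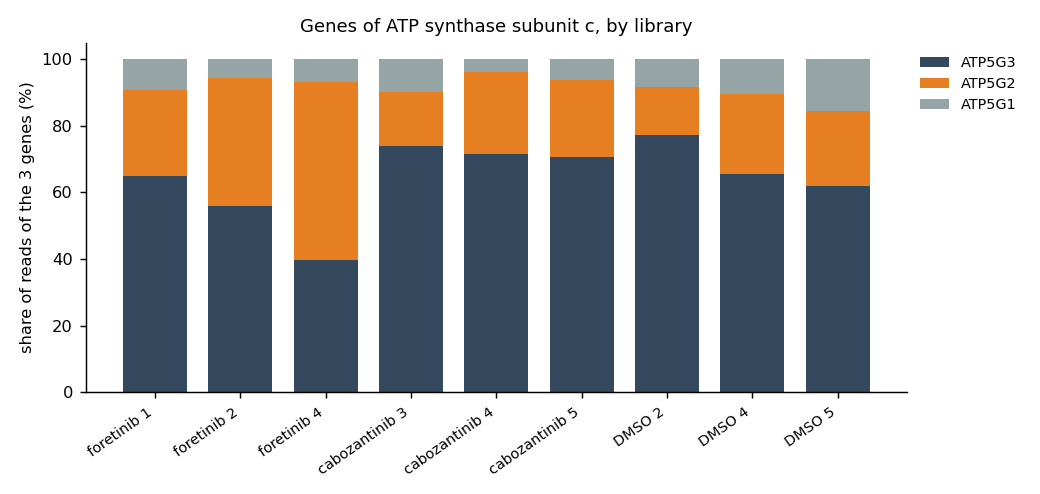
Share (%) of the reads of ATP5G1, ATP5G2 and ATP5G3 that each gene held, by library. The ATP5G2 share is 25.8% to 53.4% in foretinib, 16.0% to 24.7% in cabozantinib and 14.5% to 24.2% in DMSO.

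Genes that build or feed the chain were read beside it. Limma and edgeR called none of them in any comparison. DESeq2 called COA5, NRF1 and MRPL2, each lower, in both foretinib comparisons and none against DMSO in cabozantinib. Over all tested genes, it called 4.37% as lower in foretinib than in DMSO and 4.39% as lower than in cabozantinib. At an unadjusted limma p below 0.05, foretinib against DMSO had 2 of 32 assembly factors higher and 2 lower, 1 of 11 regulators higher and 1 lower and 5 of 77 mitochondrial ribosomal proteins lower, against 2.17% higher and 6.9% lower of all tested genes. Cabozantinib against DMSO had 1 assembly factor higher (background 0.878%). Foretinib against cabozantinib had 1 assembly factor higher and 4 lower, 1 regulator lower, 7 mitochondrial ribosomal proteins lower, 1 carrier or outside subunit in each direction and 1 tricarboxylic acid cycle gene higher, against 1.83% higher and 8.08% lower of all tested genes. Of the 32 assembly factors, 12 had a fold change above 0 and 20 below in foretinib against DMSO (median -0.50), 21 and 11 in cabozantinib against DMSO (median 0.21) and 7 and 25 in foretinib against cabozantinib (median -0.74). Of all tested genes, 36.1%, 53.3% and 33.6% were above 0 in these comparisons, with medians of -0.34, 0.04 and -0.44. COA5, for complex IV assembly, was listed at 0 in all foretinib libraries, against 247, 198 and 399 in cabozantinib and 772, 75.3 and 142 in DMSO, and DESeq2 called it against both (adjusted p = 1.85e-05 against cabozantinib and 9.04e-06 against DMSO). NDUFAF3, a complex I assembly factor, had 10131, 11730.3 and 12559 in foretinib, against 8169, 6487 and 8875 in DMSO, all higher, at 0.56 on the log2 scale (limma adjusted p = 0.472). COX17, a copper chaperone for complex IV, had 10581, 7914 and 12216 in cabozantinib, against 5575, 7518 and 7161 in DMSO, all higher, at 0.59 (limma adjusted p = 1.00). COX11, which also serves copper insertion, had 1830.3, 54.7 and 2.09 in foretinib, against 1251, 1693 and 1492 in cabozantinib, and overlapped.

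Of the 11 tested regulators, 3 had a fold change above 0 and 8 below in foretinib against DMSO (median -0.57), 5 and 6 in cabozantinib against DMSO (median -0.08) and 4 and 7 in foretinib against cabozantinib (median -0.26), beside the 36.1%, 53.3% and 33.6% of all tested genes above 0. TFAM, which packages mitochondrial DNA and serves its transcription, had 3319, 3869 and 5923 in foretinib, against 2944, 1541 and 2238 in DMSO, all higher, at 0.97 (0.23 to 1.71, limma adjusted p = 0.442). ESRRA, a nuclear receptor for mitochondrial genes, had 202, 180.4 and 4.09 in cabozantinib, against 309, 691 and 686 in DMSO, all lower, with a log2 fold change of -3.21 (limma adjusted p = 1.00) that was -1.46 without cabozantinib library 5. PPARGC1A, a coactivator, was at 0 in 7 of the 9 libraries and was not tested.

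Among 8 carriers and subunits that the symbol rule leaves out, 4 had a fold change above 0 in foretinib against DMSO, 5 in cabozantinib against DMSO and 4 in foretinib against cabozantinib. C14orf2, a small ATP synthase subunit also called MLQ, had 4521, 3517 and 4727 in foretinib, against 1450.2, 2433 and 2845 in cabozantinib, at 0.97 (limma adjusted p = 0.466). USMG5, another small ATP synthase subunit, had 5600.3, 9677 and 11426 in foretinib, against 12584, 11759 and 13321 in cabozantinib, at -0.56 (-0.25 without foretinib library 1, limma adjusted p = 0.486), so these 2 subunits of the same complex lay on opposite sides with no overlap. CYCS, the electron carrier cytochrome c, had 8855, 9217 and 11061 in cabozantinib, against 5867, 8281 and 9421 in DMSO, with overlap. Of the 16 genes of the tricarboxylic acid cycle and pyruvate dehydrogenase, CS, for citrate synthase, had 5982, 4389 and 4460.4 in foretinib, against 3144, 2084 and 3733 in cabozantinib, all higher, at 0.75 (0.15 to 1.36, limma adjusted p = 0.425). The median over these 16 was -0.01, -0.13 and 0.04 in foretinib against DMSO, cabozantinib against DMSO and foretinib against cabozantinib. Of the 77 tested mitochondrial ribosomal proteins, which build the ribosome for the mitochondrially encoded subunits, the medians were -0.29, -0.04 and -0.46 in the same order, beside -0.34, 0.04 and -0.44 over all tested genes. MRPL2, of the large mitochondrial ribosomal subunit, was listed at 0 in all foretinib libraries, against 116, 169 and 148 in cabozantinib and 408, 15.1 and 114 in DMSO.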

How the data were processed

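The table that the authors deposited holds 1 signal value per gene and library, a read count scaled by the library's size factor. Cufflinks 2.2.1, DESeq2, HTSeq, TopHat2 2.0.13 and the build hs37d5 are listed in the submitters' processing notes. What each did, which annotation was used and how strand was handled is not given in the sources used here, so overlapping and antisense genes cannot be separated. In the 9 columns 100% of values were whole multiples of 1 step (tolerance 1e-06 of a read). In cabozantinib libraries 3 and 4 and DMSO library 4 the step was close to 1 (0.993, 0.997 and 1.005), and 0% of their values above 0 were whole at that tolerance before division by it. Whole reads were recovered, and the count tests run on them as alternatives called 0 genes (edgeR 4.0.16) and 673, 39 and 641 genes (DESeq2 1.42.0) in foretinib against DMSO, cabozantinib against DMSO and foretinib against cabozantinib. Reads copied from 1 molecule could not be recognised, so a value of 0 was given no upper limit.

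The 12642 genes that reached 10 in 3 or more libraries were tested as log2(value + 1) with limma 3.58.1 in R 4.3.3, with a mean-variance trend, all 9 libraries in 1 model and no covariates. Calls used a Benjamini-Hochberg adjusted p below 0.05 over all tested genes. A gene listed at 0 in a group was given no fold. Levels per kilobase used GENCODE 29 transcript lengths, and promoters came from RefSeq.

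Named were, per comparison, the 2 tested members of each complex with the smallest p and a mean of at least 100, core subunits, isoforms, and the 2 genes of each other list with the smallest p; not all so named are described. The members, lists and rule were chosen with earlier results of these data known. Alternatives were other pseudocounts and filters, quantile and TMM scaling, a model of only the compared libraries, a replicate block, edgeR, DESeq2 and leaving out each library.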

Additional observations from a re-analysis of the deposited data

How the results depend on the processing

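Of 168 recomputed counts, medians and summed ratios, 158 kept their reading and 10 moved. A count kept its reading if it was unchanged or within a ratio of 1.5. A median or summed ratio kept it if the shift was within the pooled SD between libraries. Call counts of 0 that stayed at 0 are included, so the tally says little about the calls. The 83 tested members had no limma call under any pseudocount, filter, scaling or left-out library that was run. With DESeq2 the number of called genes was 673 (120 higher, 553 lower) in foretinib against DMSO, 641 in foretinib against cabozantinib and 39 in cabozantinib against DMSO. It called 2 members in each foretinib comparison, ATP5B and NDUFB6; quantile normalisation gave 1 called gene in foretinib against DMSO. The members' median log2 fold change for foretinib against DMSO lay between -0.13 (without DMSO replicate 2) and 0.10 when each library was left out, on both sides of 0. The summed ratio of foretinib over cabozantinib was 0.963 after quantile normalisation. Among named members, UQCRHL in foretinib against DMSO ran from -2.94 to 0.042 and CYC1 in foretinib against cabozantinib from -4.10 to 0.32 over the left-out libraries, each highest without foretinib replicate 2, where both were low. DESeq2 also called NRF1, COA5 and MRPL2 in both foretinib comparisons.

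Library numbers are shared by foretinib and DMSO (2 and 4), cabozantinib and DMSO (4 and 5) and foretinib and cabozantinib (4). Correlations of their deviations across genes ran from -0.0022 to 0.0288 for same-numbered libraries and from -0.0244 to 0.0308 for differently numbered ones. With so few libraries these values cannot tell whether a number marks a shared day, which the labels do not say. The main model used no pairing. With a replicate block, 0 genes and 0 members were called in each comparison, the members' median was 0.15 in foretinib against DMSO and 0.048 in foretinib against cabozantinib, and COX7C in the last comparison turned to 0.048. Low values limit precision: an interval on a member listed near 0 in 1 library spans several log2 units, and depth does not set a limit for a value of 0 here.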
